A study of Mus musculus with 9 samples.

Results

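The genes described here are 33 mouse genes known as transcriptional targets of p53, chosen from a fixed list of symbols and leaving out Cdkn1a, the gene of the cell cycle inhibitor p21. All 33 were found among the 53379 gene identifiers of the count tables by matching Ensembl identifiers to GENCODE M21 symbols. The libraries hold RNA of sorted GFP-positive cells, labelled as neural progenitor cells. These came from the forebrain of C57Bl6DBa2 mice electroporated in utero at E14.5 and collected at E16.5, 2 days later. The GemC1 group received the plasmid pCAGGS-GemC1, the Mcidas group pCAAGS-Mcidas, and the GFP control group the H2B-GFP plasmid without either factor, with 3 libraries in each. Both factors, GemC1 (gene symbol Gmnc) and Mcidas, belong to the geminin family and drive cells to become multiciliated, and each plasmid expresses its factor from a strong general promoter rather than its own. Whether libraries came from different litters, and whether embryos were pooled, is not stated, so a p-value here measures no more than the spread among these libraries, which may be technical. The codes in the file names of the Mcidas libraries name another year than the codes of the other 2 groups, and if that marks a batch, it and the Mcidas plasmid cannot be told apart.

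p53 is a transcription factor that is held at low activity by the ubiquitin ligase Mdm2 and is released by DNA damage and other stress. Its targets include genes that stop the cell cycle, start cell death, repair DNA and adjust metabolism, and many of them also answer to other regulators such as the related factors p63 and p73. In the embryonic brain p53 is best known for removing progenitors with damaged DNA, and the title of the series concerns the response to DNA damage through p53 and p21 in ependymal cells, which carry cilia and cover the ventricle walls.

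Total counts ran from 22914704 to 41163917 per library, and mitochondrial genes took 0.248% to 0.395% of them. Gmnc, the gene introduced in the GemC1 group, was counted at 291.0, 223 and 317 CPM (counts relative to the size of the library, scaled for its composition) in GemC1 libraries, against 0.259, 0 and 0.26 CPM in Mcidas libraries and 0 in all 3 GFP libraries. Mcidas had 388, 508 and 597 CPM in Mcidas libraries and 76.8, 60.3 and 73.1 CPM in GemC1 libraries, against 0.647, 0.663 and 0.69 CPM in GFP libraries. The introduced genes followed the labels in all 9 libraries, and Mcidas was also present in the GemC1 group. Markers of radial glia and of cortical excitatory neurons were both present in the libraries labelled as neural progenitor cells, and none of the 13 and 15 genes of these lists was at 0 throughout a group.

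Of the 33 targets 31 had enough counts to be tested, and in GemC1 7 of them rose and 1 fell relative to GFP. The background was 3.86% of all 19572 genes tested called higher and 1.32% called lower (edgeR quasi-likelihood test, adjusted p under 0.05). In Mcidas 8 of the 31 rose and none fell, against a background of 4.03% higher and 0.327% lower. With DESeq2 7 rose and 2 fell in GemC1, against a background of 5.9% and 3.39%, and 9 rose and none fell in Mcidas, against 5.42% and 0.649%. The 9 include Fas, which was over the minimum of the low-count filter in no GFP library. At an unadjusted p under 0.05 (edgeR) there were 14 targets in GemC1 and 14 in Mcidas, where 19.5% and 12.6% of all genes passed. These counts include Fas in both comparisons and the similarly low Tnfrsf10b in Mcidas. Both comparisons used the same 3 GFP libraries. The genes that rose in GemC1 were Pltp, Cd82, Phlda3, Eda2r, Dglucy, Polk and Ddit4l, and those that rose in Mcidas were these 7 and Ccng1. The gene that fell in GemC1 was Trp53i11. Well known targets such as Gadd45a, Sesn1, Btg2, Plk2, Zmat3 and Ddb2 did not pass the test in either comparison.

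The median log2 fold change of the 31 tested targets was 0.16 in GemC1 and 0.13 in Mcidas, and over all genes tested it was 0 and -0.03. The 33 targets include 2, Dram1 and Gdf15, that were left out of the test for low counts. Of those tested, Fas was over the minimum of 0.311 CPM in 1 GemC1, 2 Mcidas and no GFP library, and Tnfrsf10b in 2, 3 and 1, so these entered the test mainly through the groups in which they were higher. The other 29 were over it in all 9 libraries.

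**Figure D1:**
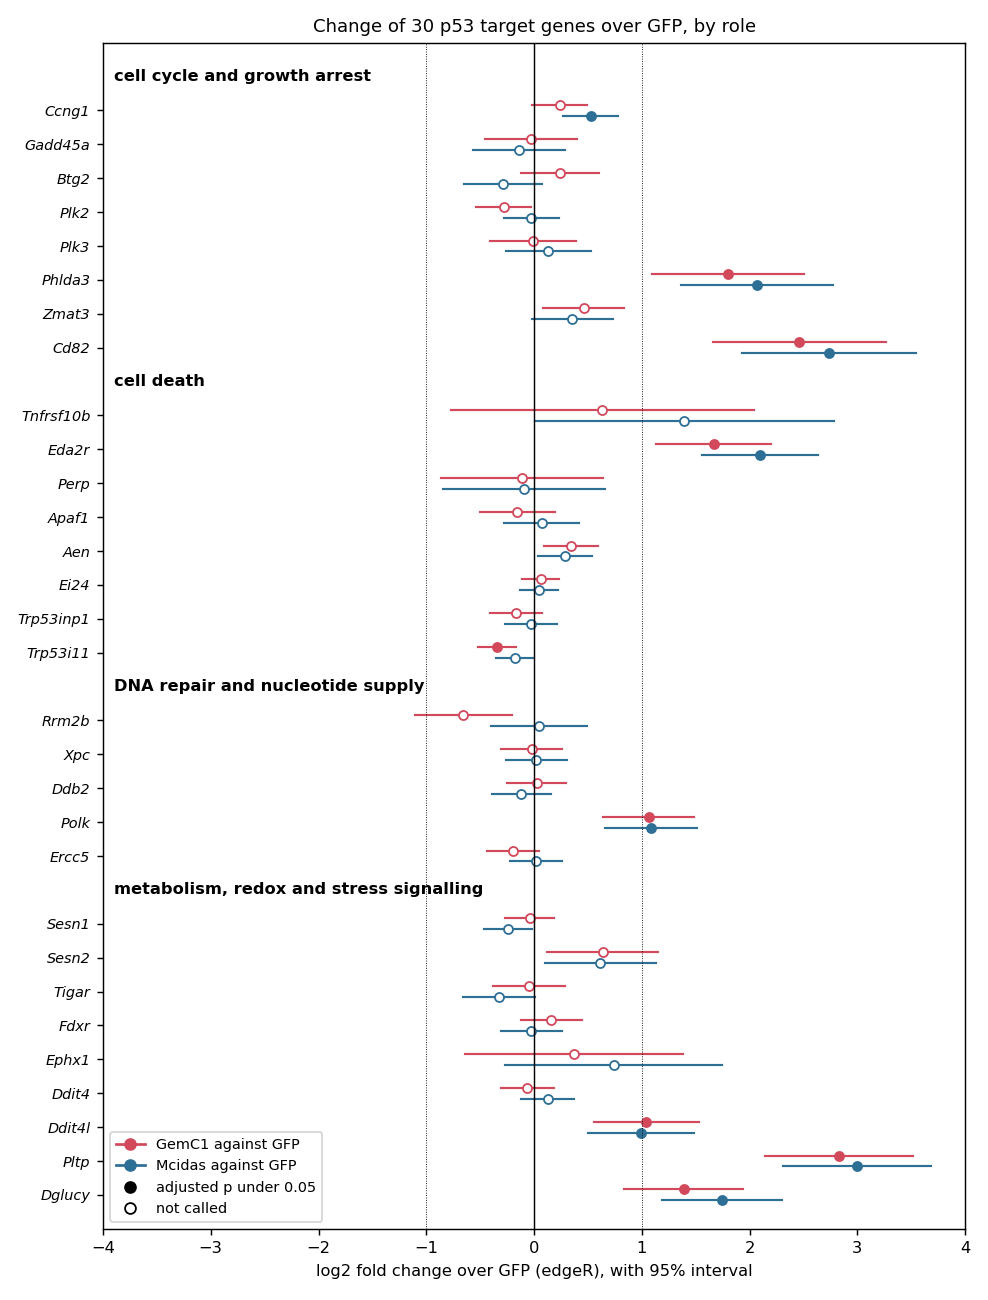
Log2 fold change over GFP (x axis, edgeR) of 30 p53 target genes (y axis) in GemC1 (red, upper of each pair) and Mcidas (blue, lower), with 95% intervals as lines; filled points have an adjusted p under 0.05 and dotted lines mark a 2-fold change. Most targets lie close to 0 with intervals inside 2-fold, and Pltp, Cd82, Phlda3, Eda2r and Dglucy stand apart to the right in both comparisons; Fas, with 1 count in GFP, is not drawn.

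Promoter sequences were examined because these genes are grouped by a shared regulator. RefSeq promoters (build GRCm38.p6, 250 bases before to 50 bases after a start site) were given for 26 of the 33 targets, and each was searched for the p53 decamer, the 10-base unit of which a full p53 response element holds a pair. Its pattern reads the same on both strands. At least 1 decamer was found in 7 of the 26 targets with a promoter entry (26.9%), against 9.55% of all 27025 genes with one, and genes with several start sites had more windows to match. Of the 8 targets that rose, 3 had one, Ccng1, Ddit4l and Polk. The windows below show the decamer in capitals with 10 bases on each side, read 5′ to 3′ along the gene's strand, so that those of the risen and of the uncalled genes can be compared.
Ccng1: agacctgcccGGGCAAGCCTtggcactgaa
Ddit4l: caactcccagGGGCTTGCCTgggcccctgc
Polk: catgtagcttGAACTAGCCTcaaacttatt
Gadd45a: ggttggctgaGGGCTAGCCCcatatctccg
Aen: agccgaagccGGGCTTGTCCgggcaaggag
Ei24: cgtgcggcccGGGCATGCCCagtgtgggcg
Sesn1: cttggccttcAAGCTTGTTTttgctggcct
The decamer began 185 bases before the start site in Ccng1, 90 in Ddit4l, 40 in Gadd45a and 10 in Ei24. In Aen the decamer began 121 bases before a start site, and at position 11 counted from another. It began 231 bases before a start site in Polk and 173 in Sesn1. For Polk, Sesn1 and Ddit4l this start site lies inside the gene and not at its annotated 5′ end. The start sites of Ccng1, Gadd45a, Aen and Ei24 also lie inside the annotated gene, but nearer its 5′ end. The Polk window is at chr13:96519399-96519428, and the gene, on the minus strand, begins at 96542579. The Sesn1 window is at chr10:41887256-41887285, and the gene, on the plus strand, begins at 41809935. Gadd45a, Aen, Ei24 and Sesn1 hold a decamer and were not called in either comparison with GFP. A match is a description of these letters and not a bound site, and p53 is also known to bind outside so short a window, in introns for example.

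To show windows of risen genes with and without a decamer, the whole promoter is given for 4 of them. Ccng1 (chr11:40755237-40755536, minus strand) and Ddit4l (chr3:137623422-137623721, plus strand) hold 1 decamer each, shown in capitals, while Eda2r (chrX:97377160-97377459, minus strand) and Phlda3 (chr1:135765835-135766134, plus strand) hold none. Pltp, Cd82 and Dglucy, which also rose, had an entry and no decamer.
Ccng1: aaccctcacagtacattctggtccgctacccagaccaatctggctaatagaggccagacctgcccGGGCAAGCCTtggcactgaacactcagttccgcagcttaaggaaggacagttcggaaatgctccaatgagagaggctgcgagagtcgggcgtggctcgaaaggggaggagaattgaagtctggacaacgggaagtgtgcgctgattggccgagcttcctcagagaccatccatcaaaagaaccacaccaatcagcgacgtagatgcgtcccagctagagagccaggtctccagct
Ddit4l: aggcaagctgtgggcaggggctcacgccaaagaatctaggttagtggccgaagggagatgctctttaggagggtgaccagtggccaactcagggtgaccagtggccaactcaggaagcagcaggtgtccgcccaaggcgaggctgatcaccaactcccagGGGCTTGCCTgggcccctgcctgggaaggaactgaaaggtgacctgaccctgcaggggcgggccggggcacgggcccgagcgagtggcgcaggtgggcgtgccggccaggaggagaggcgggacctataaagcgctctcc
Eda2r: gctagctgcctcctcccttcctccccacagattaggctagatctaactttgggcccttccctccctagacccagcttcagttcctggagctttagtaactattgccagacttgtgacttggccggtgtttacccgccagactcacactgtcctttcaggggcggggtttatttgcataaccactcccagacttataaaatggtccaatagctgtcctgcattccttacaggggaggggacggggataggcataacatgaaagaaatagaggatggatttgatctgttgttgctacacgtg
Phlda3: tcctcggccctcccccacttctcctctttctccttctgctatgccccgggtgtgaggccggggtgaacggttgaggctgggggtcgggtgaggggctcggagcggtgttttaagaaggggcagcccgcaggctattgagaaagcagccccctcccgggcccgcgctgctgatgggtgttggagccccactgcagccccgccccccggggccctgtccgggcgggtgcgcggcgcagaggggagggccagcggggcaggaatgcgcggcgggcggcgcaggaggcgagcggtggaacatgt

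Among the 8 targets that restrain the cell cycle or growth, all of them tested, 2 rose in GemC1 and 3 in Mcidas. Over all genes tested, 3.86% rose in GemC1 and 4.03% in Mcidas. Phlda3 (ENSMUSG00000041801, chromosome 1, 135766119 to 135769136 of GRCm38), whose product competes with the kinase Akt for membrane lipids, had 13.0, 6.03 and 7.96 CPM in GemC1 libraries and 8.09, 11.05 and 13.55 CPM in Mcidas libraries, against 2.41, 1.87 and 3.51 CPM in GFP libraries. Every factor library lay above every GFP library. Phlda3 rose by 1.798 ± 0.32 (SE) on the log2 scale in GemC1 (adjusted p = 0.00596, edgeR) and by 2.07 ± 0.32 in Mcidas (adjusted p = 0.0017).

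Cd82 (ENSMUSG00000027215, chromosome 2, 93419111 to 93463140), which encodes a tetraspanin of the cell surface known as a metastasis suppressor, had 6.70, 8.33 and 6.25 CPM in GemC1 libraries and 4.06, 11.1 and 10.6 CPM in Mcidas libraries, against 1.73, 1.10 and 1.02 CPM in GFP libraries. The groups did not overlap, and Mcidas replicate 1 was the lowest of the factor libraries. Cd82 rose by 2.46 ± 0.37 (SE) on the log2 scale in GemC1 (adjusted p = 0.00152, edgeR) and by 2.74 ± 0.37 in Mcidas (adjusted p = 0.000526).

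Ccng1 (ENSMUSG00000020326, chromosome 11, 40748552 to 40755311), which encodes cyclin G1, a partner of protein phosphatase 2A, had 44.5, 42.3 and 40.4 CPM in GemC1 libraries and 50.6, 59.2 and 45.4 CPM in Mcidas libraries, against 34.1, 33.8 and 40.03 CPM in GFP libraries. All factor libraries were above all GFP libraries, in GemC1 by a narrow margin. Ccng1 rose by 0.52 ± 0.12 (SE) on the log2 scale in Mcidas (adjusted p = 0.0205, edgeR), and its value in GemC1 was 0.24 ± 0.12 (adjusted p = 0.289). The Mcidas call was lost without Mcidas replicate 2 (adjusted p = 0.13), GFP replicate 1 (adjusted p = 0.0913) or GFP replicate 2 (adjusted p = 0.101).

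The other 5 genes of this role were not called. Btg2, an antiproliferative gene that marks neurogenic progenitors of the embryonic cortex, had the highest level per length among them and was counted at 148.7, 139.9 and 181.6 CPM in GemC1 libraries and 122.7, 104.6 and 98.7 CPM in Mcidas libraries, against 149.3, 154.6 and 94.6 CPM in GFP libraries. The GFP libraries overlapped both factor groups, and GemC1 replicate 3 lay above every GFP library. Gadd45a, a growth arrest gene induced by DNA damage, had a log2 fold change of -0.03 (95% interval -0.45 to 0.40) in GemC1 and -0.14 (-0.57 to 0.28) in Mcidas. The polo-like kinase genes Plk2 and Plk3 had -0.28 and -0.01 in GemC1 and -0.03 and 0.13 in Mcidas. Zmat3, an RNA-binding protein that alters splicing, had 0.46 ± 0.17 (SE, adjusted p = 0.159) in GemC1 and 0.35 ± 0.17 (adjusted p = 0.444) in Mcidas. A stretch of 337 exon bases of Gadd45a (19.1%) overlaps the gene E230016M11Rik on the opposite strand, and the kits used do not mark strand.

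**Figure D2:**
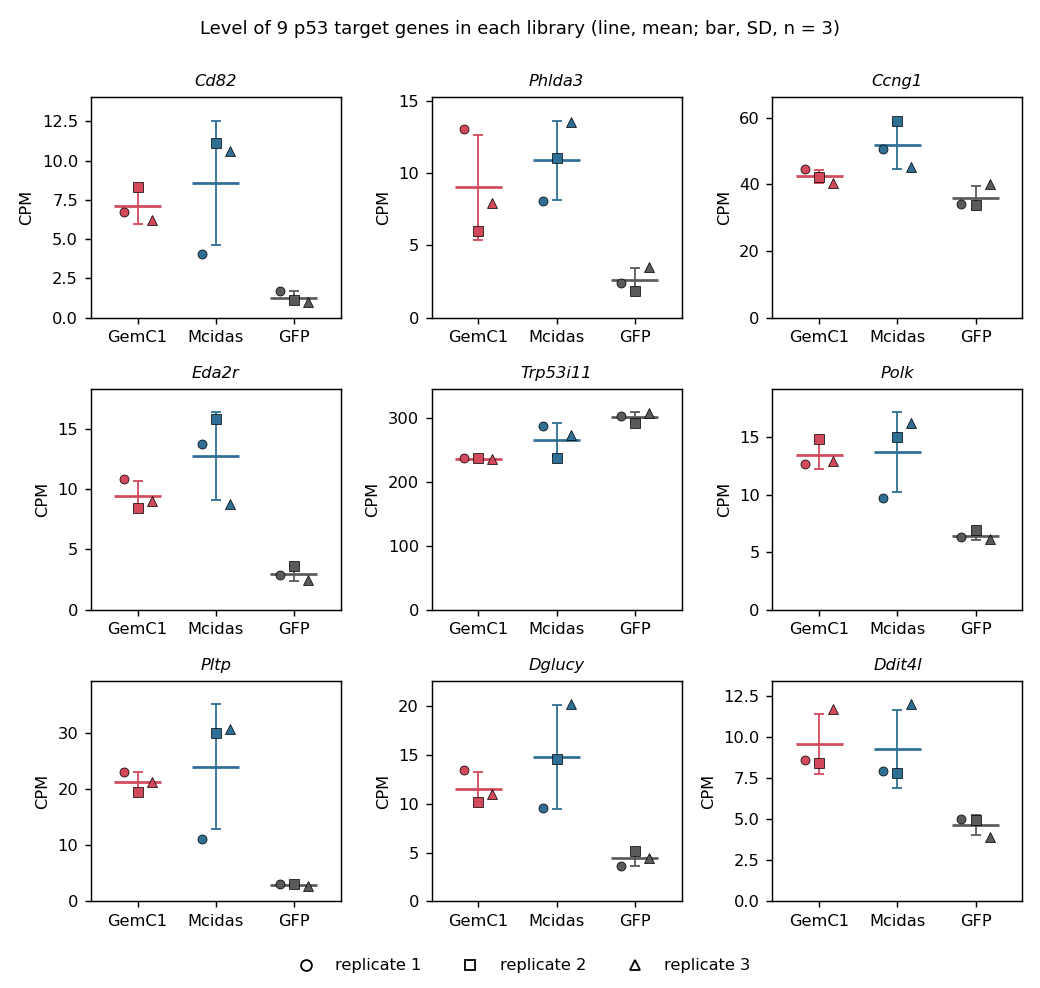
Level in CPM (y axis, linear from 0) of the 9 p53 target genes called in a comparison with GFP, by group (x axis: GemC1, Mcidas, GFP); points are libraries, with a marker shape for each replicate number, lines are means and bars SD (n = 3). Factor libraries lie above GFP libraries for every gene but Trp53i11, which is lower in GemC1 at 236 CPM than in GFP at 300.3 CPM on average, and Mcidas replicate 1 is low for Pltp and Cd82.

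Among the 10 targets of cell death, 9 of them tested, 1 rose in both comparisons and 1 fell in GemC1. Over all genes tested, 3.86% rose and 1.32% fell in GemC1, and 4.03% rose in Mcidas. Eda2r (ENSMUSG00000034457, chromosome X, 97333840 to 97377216), a receptor of the tumour necrosis factor family that binds ectodysplasin A2, had 10.9, 8.47 and 9.07 CPM in GemC1 libraries and 13.7, 15.8 and 8.75 CPM in Mcidas libraries, against 2.85, 3.66 and 2.43 CPM in GFP libraries. The lowest factor library was more than 2-fold above the highest GFP library. Eda2r rose by 1.66 ± 0.25 (SE) on the log2 scale in GemC1 (adjusted p = 0.00136, edgeR) and by 2.10 ± 0.25 in Mcidas (adjusted p = 0.000158).

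Trp53i11 (ENSMUSG00000068735, chromosome 2, 93187548 to 93201759), a p53-inducible gene whose function is little understood, had the highest level per length of all 33 targets in GFP. It was counted at 236.2, 236.3 and 235.5 CPM in GemC1 libraries and 286.4, 236.3 and 272.7 CPM in Mcidas libraries, against 302, 291.9 and 307.1 CPM in GFP libraries. The GemC1 libraries were almost equal and all were below GFP. Trp53i11 fell by 0.35 ± 0.08 (SE) on the log2 scale in GemC1 (adjusted p = 0.027, edgeR), and its value in Mcidas was -0.18 ± 0.08 (adjusted p = 0.376). The GemC1 call was lost when any 1 of the 3 GemC1 or 3 GFP libraries was left out, with adjusted p up to 0.115.

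The death receptor gene Fas was at the edge of detection. It had 0, 6 and 16 counts in GemC1 libraries and 15, 9 and 19 counts in Mcidas libraries, against 1, 0 and 0 counts in GFP libraries. The ratio to GFP of summed counts, each relative to the group's total counts, was 27.8 in GemC1 (95% exact interval 4.49 to 1150). In Mcidas it was 52.8 (8.98 to 2130), and these intervals cover counting error only. Fas was not called in GemC1 (adjusted p = 0.117, edgeR), where replicate 1 had no count, or in Mcidas (adjusted p = 0.0529). In Mcidas it passed with DESeq2 (adjusted p = 0.0153) and in the edgeR fit without GemC1 replicate 1 (adjusted p = 0.0215), and over all alternatives the adjusted p ran from 0.00573 to 0.238. Tnfrsf10b, the receptor of the death ligand TRAIL, had between 7 and 20 counts in GemC1 libraries and 20 to 26 counts in Mcidas libraries, against 6 to 18 counts in GFP libraries, and was not called.

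The remaining genes of this role were not called either, most of them with an interval inside 2-fold in both comparisons. Aen, an apoptosis-enhancing nuclease, had 0.34 ± 0.12 (SE) on the log2 scale in GemC1 (adjusted p = 0.12, edgeR) and 0.28 ± 0.12 in Mcidas (adjusted p = 0.304), and did not overlap with GFP in either. Apaf1, the core of the apoptosome, had -0.16 (95% interval -0.51 to 0.20) and 0.07 (-0.28 to 0.42). Trp53inp1, a nuclear partner of p53 in cell death and autophagy, had -0.17 (-0.41 to 0.08) and -0.03 (-0.27 to 0.21), and Ei24, a protein of the endoplasmic reticulum, had 0.06 (-0.12 to 0.24) and 0.04 (-0.13 to 0.22). Perp, a membrane protein of desmosomes, had -0.11 and -0.10 at about 2 CPM. Dram1, an activator of autophagy, was not tested, with 3 to 6 counts in GemC1 libraries and 3 to 5 counts in Mcidas libraries, against 4 to 12 counts in GFP libraries.

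Among the 5 targets of DNA repair and nucleotide supply, all of them tested, 1 rose in both comparisons. Over all genes tested, 3.86% rose in GemC1 and 4.03% in Mcidas. Polk (ENSMUSG00000021668, chromosome 13, 96480690 to 96542579), a DNA polymerase that copies past damaged bases, had 12.6, 14.8 and 12.9 CPM in GemC1 libraries and 9.70, 15.04 and 16.2 CPM in Mcidas libraries, against 6.29, 6.88 and 6.15 CPM in GFP libraries. The groups did not overlap. Polk rose by 1.06 ± 0.20 (SE) on the log2 scale in GemC1 (adjusted p = 0.007, edgeR) and by 1.08 ± 0.20 in Mcidas (adjusted p = 0.005).

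Genes of nucleotide excision repair stayed close to GFP. Ercc5, which encodes the endonuclease XPG and had the highest level per length of this role, was counted at 61.1, 57.3 and 73.2 CPM in GemC1 libraries and 74.5, 69.04 and 78.8 CPM in Mcidas libraries, against 69.9, 81.7 and 67.8 CPM in GFP libraries. The groups overlapped. The damage sensors Xpc and Ddb2 had log2 fold changes of -0.02 (95% interval -0.30 to 0.26) and 0.03 (-0.25 to 0.30) in GemC1, and of 0.02 (-0.26 to 0.30) and -0.12 (-0.39 to 0.15) in Mcidas. Of the exon bases of Ddb2 23.8% overlap Acp2 on the opposite strand, and Acp2 had a log2 fold change of 0.01 in GemC1 and -0.14 in Mcidas, neither called.

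Rrm2b, the p53-induced subunit of ribonucleotide reductase that supplies DNA precursors outside S phase, had 11.5, 9.11 and 7.07 CPM in GemC1 libraries and 18.9, 13.55 and 12.5 CPM in Mcidas libraries, against 16.02, 13.2 and 14.4 CPM in GFP libraries. All GemC1 libraries were below all libraries of both other groups. The log2 fold change in GemC1 was -0.66 ± 0.21 (SE), which did not pass in edgeR (adjusted p = 0.0927) and did in DESeq2 (adjusted p = 0.0304), and in Mcidas it was 0.05 ± 0.20 (adjusted p = 0.965).

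Among the 10 targets of metabolism, redox balance and stress signalling, 9 of them tested, 3 rose in both comparisons. Over all genes tested, 3.86% rose in GemC1 and 4.03% in Mcidas. Pltp (ENSMUSG00000017754, chromosome 2, 164839518 to 164857711), which encodes the phospholipid transfer protein of plasma lipoproteins, had 23.1, 19.5 and 21.3 CPM in GemC1 libraries and 11.2, 30.1 and 30.8 CPM in Mcidas libraries, against 3.17, 3.04 and 2.79 CPM in GFP libraries. The 3 GemC1 libraries were close to each other, and Mcidas replicate 1 was the lowest factor library. Pltp rose by 2.83 ± 0.32 (SE) on the log2 scale in GemC1 (adjusted p = 0.000171, edgeR) and by 2.997 ± 0.32 in Mcidas (adjusted p = 7.41e-05), the largest changes among the called targets in both. A share of 19.3% of its exon bases overlaps Ctsa on the opposite strand, and Ctsa had a log2 fold change of 0.17 in GemC1 and -0.05 in Mcidas, neither called.

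Dglucy (ENSMUSG00000021185, chromosome 12, 100779057 to 100896981), the mitochondrial D-glutamate cyclase, had 13.5, 10.2 and 11.1 CPM in GemC1 libraries and 9.56, 14.6 and 20.2 CPM in Mcidas libraries, against 3.67, 5.16 and 4.41 CPM in GFP libraries. The groups did not overlap. Dglucy rose by 1.39 ± 0.25 (SE) on the log2 scale in GemC1 (adjusted p = 0.00683, edgeR) and by 1.74 ± 0.26 in Mcidas (adjusted p = 0.00103).

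Ddit4l (ENSMUSG00000046818, chromosome 3, 137621612 to 137628333), an inhibitor of the growth kinase complex mTORC1, had 8.60, 8.40 and 11.7 CPM in GemC1 libraries and 7.95, 7.79 and 12.0 CPM in Mcidas libraries, against 5.03, 4.96 and 3.93 CPM in GFP libraries. The groups did not overlap. Ddit4l rose by 1.04 ± 0.23 (SE) on the log2 scale in GemC1 (adjusted p = 0.0183, edgeR) and by 0.99 ± 0.23 in Mcidas (adjusted p = 0.0238). The GemC1 call was lost without GemC1 replicate 3, GFP replicate 2 or GFP replicate 3 (adjusted p up to 0.098), and the Mcidas call without Mcidas replicate 3 or any 1 GFP library (up to 0.126). Its close relative Ddit4, which also inhibits mTORC1, had log2 fold changes of -0.06 (95% interval -0.31 to 0.18) in GemC1 and 0.13 (-0.12 to 0.37) in Mcidas.

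The sestrins, stress sensors that restrain mTORC1, were not called. Sesn1 had the highest level per length of this role and was counted at 124.2, 101.2 and 106.1 CPM in GemC1 libraries and 97.2, 99.0 and 92.2 CPM in Mcidas libraries, against 110.4, 102.5 and 128.6 CPM in GFP libraries. All Mcidas libraries were below all GFP libraries, at -0.24 ± 0.10 (SE) on the log2 scale (adjusted p = 0.335, edgeR). Sesn2 had 28.6, 14.97 and 20.8 CPM in GemC1 libraries and 14.95, 21.2 and 27.45 CPM in Mcidas libraries, against 13.55, 14.7 and 13.2 CPM in GFP libraries. Every factor library lay above every GFP library, with wide spread within both factor groups, and the log2 fold change was 0.64 ± 0.24 (adjusted p = 0.159) in GemC1 and 0.62 ± 0.24 (adjusted p = 0.268) in Mcidas.

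Tigar, a phosphatase that lowers glycolytic flux, had log2 fold changes of -0.05 in GemC1 and -0.33 in Mcidas, Fdxr, the mitochondrial ferredoxin reductase, had 0.16 and -0.02, and the epoxide hydrolase gene Ephx1 had 0.37 and 0.74, none of them called. Gdf15, a secreted stress cytokine that is a common readout of p53 and of the integrated stress response, was not tested. It had 6, 8 and 17 counts in GemC1 libraries and 3, 9 and 1 counts in Mcidas libraries, against 4, 5 and 0 counts in GFP libraries. Exons of Rrm2b, Ei24, Ephx1, Tigar and Plk3 share 3.3% to 8% of their bases with another gene. A value of 3 counts corresponds to 0.0729 to 0.131 counts per 1000000 of the library totals before composition scaling.

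Levels of different genes were compared per length, as TPM (counts per kilobase of merged exons, scaled to the same sum in each library). In GFP libraries the 8 targets that rose in a comparison had a median level of 4.05 TPM and a range of 1.49 to 35.5 TPM, and the other 23 tested targets had a median level of 24.2 TPM and a range of 0.0164 to 282 TPM. The GFP libraries are also the reference of the calls, so level and call are not independent. Whether such a split is particular to these targets was not tested. From the top, Trp53i11 averaged 282 ± 0.9 TPM (SD, n = 3), Btg2 169 ± 45.5 TPM, Trp53inp1 128 ± 10.7 TPM, Sesn1 98.9 ± 9.04 TPM and Ddit4 98.3 ± 5.95 TPM in GFP. The order of Sesn1 and Ddit4 is within their spread, as is that of Btg2 and Trp53inp1. Of the targets that rose, Ccng1 was the highest in GFP, at 35.5 ± 2.64 TPM, and Cd82 the lowest, at 1.49 ± 0.45 TPM. In Mcidas, Pltp reached 33.7 ± 15.7 TPM and Phlda3 25.1 ± 6.20 TPM, within the range of uncalled targets such as Xpc at 30.5 ± 4.05 TPM.

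**Figure D3:**
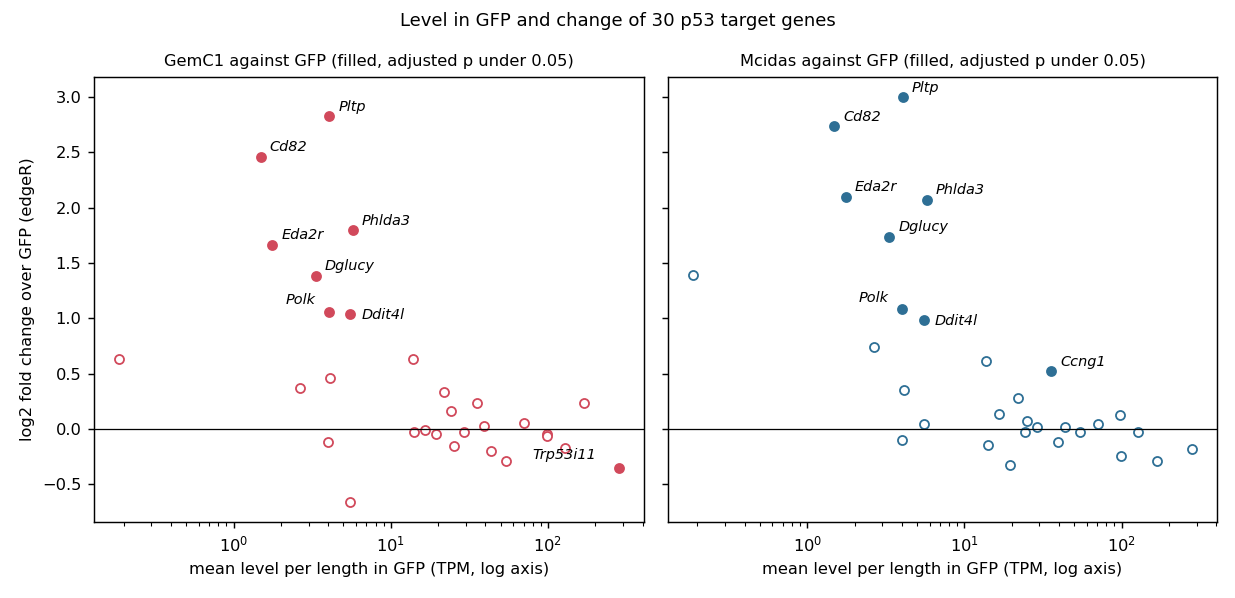
Mean level per length in GFP libraries (x axis, TPM, log axis) and log2 fold change over GFP (y axis, edgeR) of 30 p53 target genes in GemC1 (left) and Mcidas (right); filled points have an adjusted p under 0.05 and carry names, and Fas is not drawn. Of the 8 targets that rose, 7 started below 6 TPM, Ccng1 was at 35.5 TPM, and no target above that level rose. The same GFP libraries give the level and the reference of the fold change, so the axes are not independent.

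For the targets not called, the width of the interval says what change the data allow. Of the 31 targets tested, 18 in GemC1 and 19 in Mcidas were uncalled with a 95% interval inside a 2-fold change in either direction, a share slightly below that of all genes tested, 62.9% in GemC1 and 65.6% in Mcidas. Counting libraries rather than fits, 11 of the 33 targets, the untested Gdf15 included, were higher in all GemC1 than in all GFP libraries and 3 were lower, where the background of non-overlap was 13.2% and 11.7% of all genes tested. For Mcidas the numbers were 12 and 2 of the 33, against backgrounds of 10.7% and 8.87% of all genes tested. The 12 include Fas and Tnfrsf10b, which entered the test mainly through the groups in which they were higher.

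The direct comparison of GemC1 with Mcidas asked whether the factors differ in their effect on these targets. No target was called (0 of 31, edgeR), where the background was 0.0153% of all genes called higher and 0.0358% called lower. At an unadjusted p under 0.05 there were 3 targets, against 13.0% of all genes. These were Rrm2b at -0.70 ± 0.21 (SE, adjusted p = 0.209, edgeR), Btg2 at 0.53 ± 0.17 (adjusted p = 0.225) and Ccng1 at -0.29 ± 0.12 (adjusted p = 0.322) on the log2 scale. DESeq2 called 1 target, Rrm2b, as lower in GemC1 (adjusted p = 0.037), and none as higher. Of the 15398 genes to which it gave an adjusted p in this comparison, it called 1.94% lower and 1.27% higher. Without overlap of the groups 2 targets were higher in GemC1 and 3 lower, beside 9.07% and 7.64% of all genes.

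The intervals of the difference were narrow for most targets, and for 26 of 31 they lay within 2-fold, as did those of 66.7% of all genes tested. For the risen targets the log2 difference of GemC1 from Mcidas was -0.17 (95% interval -0.79 to 0.45) for Pltp, -0.28 (-1.01 to 0.46) for Cd82 and -0.27 (-0.94 to 0.39) for Phlda3. It was -0.43 (-0.94 to 0.08) for Eda2r, -0.35 (-0.89 to 0.18) for Dglucy, -0.02 (-0.44 to 0.40) for Polk and 0.05 (-0.43 to 0.53) for Ddit4l. The interval of Cd82 reaches a level 2-fold higher in Mcidas.

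**Figure D4:**
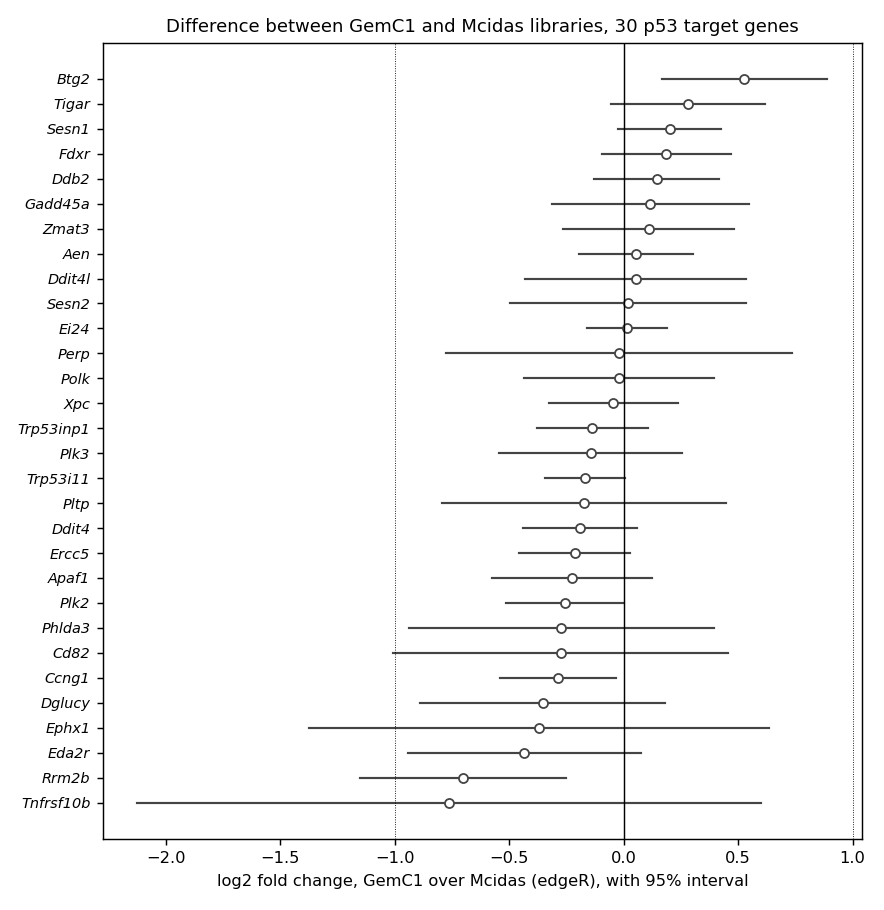
Log2 fold change of GemC1 over Mcidas (x axis, edgeR) for 30 p53 target genes (y axis, sorted), with 95% intervals; dotted lines mark a 2-fold difference and open points show that no gene was called. Btg2 lies farthest to the right at 0.53, and Rrm2b at -0.70 is the lowest with an interval that leaves out 0; Fas is not drawn.

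The other genes of the p53 pathway were taken from a list of 15, of which 13 were tested. In each comparison with GFP 3 of them rose and none fell, Cdkn1a, Pidd1 and Trp73, against a background of 3.86% higher in GemC1 and 4.03% in Mcidas. The median log2 fold change of the list was 0.16 in GemC1 and 0.10 in Mcidas. Cdkn1a had 50.4, 33.5 and 46.3 CPM in GemC1 libraries and 37.1, 56.6 and 65.3 CPM in Mcidas libraries, against 4.23, 3.12 and 2.58 CPM in GFP libraries. Pidd1, a death domain protein induced by p53, had 127.9, 113.3 and 130.7 CPM in GemC1 libraries and 135.8, 163 and 184.7 CPM in Mcidas libraries, against 20.8, 18.9 and 24.9 CPM in GFP libraries. Trp73, which encodes p73, a relative of p53 that multiciliated cells require, had 163.4, 112.2 and 173.3 CPM in GemC1 libraries and 112.9, 146.6 and 145.8 CPM in Mcidas libraries, against 0.235, 1.33 and 0.42 CPM in GFP libraries. None of these genes overlapped between a factor group and GFP, where 13.2% of all genes tested were higher without overlap in GemC1 and 10.7% in Mcidas. On the log2 scale Cdkn1a rose by 3.71, Pidd1 by 2.53 and Trp73 by 7.74 in GemC1, with adjusted p up to 3.18e-06 (edgeR). In Mcidas the values were 3.998, 2.904 and 7.595, with adjusted p up to 1.45e-06.

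Trp53 itself had 118.3, 120.2 and 123.5 CPM in GemC1 libraries and 108, 99.8 and 109.5 CPM in Mcidas libraries, against 117.9, 106 and 103 CPM in GFP libraries. Mdm2, the target that closes the feedback loop on p53, had a log2 fold change of -0.13 (95% interval -0.37 to 0.10) in GemC1 and 0.10 (-0.13 to 0.34) in Mcidas. The cell death targets Bax, Bbc3 and Pmaip1 had 0.16 (adjusted p = 0.373, edgeR), 0.29 (adjusted p = 0.469) and 0.91 (adjusted p = 0.584) in GemC1, and -0.02 (adjusted p = 0.958), 0.64 (adjusted p = 0.13) and 1.48 (adjusted p = 0.502) in Mcidas. The largest of these values, that of Pmaip1, rests on a level below 1 CPM in every library.

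Some of the targets also belong to other stress responses. The background for the lists below was 3.86% of all genes called higher and 1.32% lower in GemC1 (edgeR). In Mcidas it was 4.03% and 0.327%. An unadjusted p under 0.05 was found for 19.5% of all genes in GemC1 and 12.6% in Mcidas. Of 18 tested genes of the integrated stress response, which include Sesn2 and Ddit4, none was called by edgeR in either comparison, with median log2 fold changes of 0.20 in GemC1 and 0.10 in Mcidas. At an unadjusted p under 0.05 there were 3 in GemC1 and 3 in Mcidas, and DESeq2 called 1 and 0. Of 15 genes of the response to hypoxia and glucocorticoids, which include Ddit4, none was called by edgeR or DESeq2, with medians of 0.05 and 0.05 and 2 and 3 genes at an unadjusted p under 0.05. Of 21 tested immediate early genes, which include Btg2, 2 rose (Fosb and Egr1) and 1 fell (Ier5) in GemC1, with a median log2 fold change of 0.40, and 1 fell (Fosb) in Mcidas, with a median of -0.17. At an unadjusted p under 0.05 there were 11 in GemC1 and 4 in Mcidas, and DESeq2 called 6 and 2. In GemC1 against Mcidas 1 was called higher (Fosb), 19 of 21 had positive values, and the median was 0.49, beside the 0.53 of Btg2 in the same comparison. Btg2 also belongs to a list of 15 markers of intermediate progenitors and newborn neurons. In the same comparison none of these was called, 10 had positive values, and the median was 0.18. Whether Btg2 goes with either list was not tested. Of 15 multiciliated cell genes, which include Trp73 and the introduced Gmnc and Mcidas, 14 rose in GemC1 and 13 in Mcidas, with medians of 6.71 and 6.95.

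Pltp and Cd82 are also expressed by macrophages, and microglial genes were higher in the same groups. The summed level of 24 microglia and macrophage markers was 98.4 to 138.3 CPM in GemC1 libraries and 56.7 to 85.9 CPM in Mcidas libraries, against 35.4 to 52.95 CPM in GFP libraries. Of 22 tested markers 13 rose in GemC1 and 2 rose in Mcidas, against a background of 3.86% and 4.03% of all genes. Their median log2 fold changes were 2.21 and 1.27, and none of the 24 was at 0 in all libraries of a group. Csf1r averaged 33.05 ± 8.95 CPM in GemC1, 25.8 ± 3.27 CPM in Mcidas and 20.2 ± 2.09 CPM in GFP (SD, n = 3), and P2ry12 averaged 4.04 ± 1.46, 1.92 ± 0.29 and 0.535 ± 0.39 CPM. The marker sum was higher in every GemC1 than in every Mcidas library. Pltp averaged 21.3 ± 1.81 CPM in GemC1 and 24.1 ± 11.1 CPM in Mcidas, and Cd82 averaged 7.09 ± 1.10 CPM in GemC1 and 8.60 ± 3.94 CPM in Mcidas, and for both genes these groups overlapped. Among the Mcidas libraries replicate 1 had the lowest marker sum, 56.7 CPM against 85.9 and 73.9 CPM, and the lowest level of both genes. The part of these cells in the change of Pltp and Cd82 was not tested. In such sorted bulk samples more cells of a type and more RNA per cell cannot be told apart. No marker of endothelium (7 tested) or erythroid cells (4 tested) was called by edgeR in either comparison. At an unadjusted p under 0.05 there were 2 endothelial and 1 erythroid markers in GemC1 and none in Mcidas, and DESeq2 called 1 endothelial marker in GemC1. Igf2 of the meningeal list (7 tested) and Clic6 of the choroid plexus list (2 tested) rose in both comparisons. Positive values were found for 5 of the 7 in each comparison, and for 1 of the 2 in GemC1 and both in Mcidas. The other choroid plexus gene was lower in GemC1 at an unadjusted p under 0.05 (edgeR).

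Library by library, Mcidas replicate 1 was low for several of the genes that rose. Foxj1, a forkhead factor that motile cilia require, was at 95.8 CPM there and at 170.2 and 183.3 CPM in replicates 2 and 3. The level in replicate 1, as a percentage of the mean of replicates 2 and 3, was 36.7% for Pltp, 37.3% for Cd82, 54.8% for Dglucy, 62.1% for Polk and 65.8% for Phlda3. It was 80.3% for Ddit4l, 96.7% for Ccng1 and 112% for Eda2r. For other genes that rose it was 54.2% (Foxj1), 60.8% (Cdkn1a), 77.2% (Trp73) and 78.1% (Pidd1). These percentages include the level that each gene already had in GFP, so they do not compare the sizes of the rises between genes. Eda2r and Ccng1 were lowest in Mcidas replicate 3, at 8.75 and 45.4 CPM. Without Mcidas replicate 1 the 8 calls in Mcidas remained, and the log2 fold change of Pltp was 3.35.

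**Figure D5:**
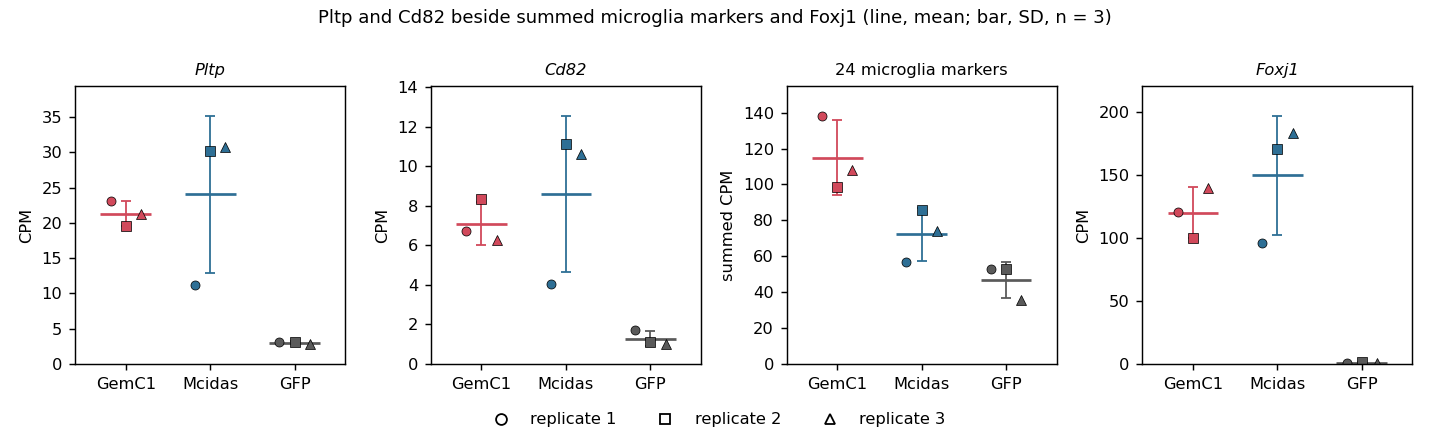
Level of Pltp and Cd82 (CPM), summed level of 24 microglia and macrophage markers (summed CPM) and level of Foxj1 (CPM) on linear y axes from 0, by group (x axis: GemC1, Mcidas, GFP), with libraries as points, means as lines and SD as bars (n = 3). In all 4 panels GFP is lowest and replicate 1 is the lowest of the Mcidas libraries, and the marker sum is higher in every GemC1 than in every Mcidas library.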

How the data were processed

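The authors deposited 1 table of unnormalised read counts by Ensembl identifier for each library, per the file headers. STAR (2.5.2b), HTSeq (0.5.3), DESeq2 (1.8.1) and mm10 appear in the submitters' processing notes, which give neither their role nor their order. Which annotation release and strand setting the authors used is not given here. Per the labels' protocols, RNA was amplified with SMART-Seq v4 and made into Nextera XT libraries, which do not mark strand or molecules. Of 53379 identifiers 53274 were matched to GENCODE M21 (GRCm38, the assembly of mm10).

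Low genes were removed with filterByExpr (at least 10 counts in a group's worth of libraries and 15 in all), and the rest were scaled by TMM (factors 0.96 to 1.035) and fitted with edgeR 4.0.16 in R 4.3.3 (glmQLFit, robust; glmQLFTest, two-sided) on all 9 libraries with group as the only term. Adjusted p (Benjamini-Hochberg) run over 19572 genes, and standard errors and 95% intervals come from the quasi-likelihood F. CPM are counts per 1000000 of the TMM-scaled library size. DESeq2 1.42.0 and 15 other settings were alternatives. No list was given a test of its own; lists are described by their counts of called genes.

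The members, roles and lists were chosen with earlier results of these data known. Every member is named; values in every library are given for those called and for the highest per length in each role, and for others chosen after their values were seen (Fas, Rrm2b, Sesn2, Gdf15). The overlap of 1 member with another gene is not reported here.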

Additional observations from a re-analysis of the deposited data

How the results depend on the processing

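Pltp, Cd82, Phlda3, Eda2r, Dglucy and Polk kept their call in both comparisons with GFP under all 16 alternatives (adjusted p up to 0.0408). Of 93 target values 16 were called. Over the alternatives 18 calls were lost, all of them of Ddit4l, Ccng1 or Trp53i11, 7 were gained, by Fas and Rrm2b, and no called value changed sign. Uncalled values changed sign 57 times, and in the reported fit none of these exceeded 0.17 in size on the log2 scale.

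Targets called higher in GemC1 numbered 7 and ranged from 6 to 7 without 1 library; targets called lower numbered 1 and ranged from 0 to 1, and were 2 with DESeq2 and 2 with no low-count filter. Targets called higher in Mcidas ranged from 6 to 9 without 1 library. In the direct comparison DESeq2 called 1 target lower. The median of the targets was 0.068 to 0.199 without 1 library and 0.064 with a stricter filter in GemC1. In Mcidas it was 0.121 to 0.176 without 1 library, 0.14 with DESeq2 size factors, 0.14 with DESeq2, 0.093 with the stricter filter, 0.11 with the replicate block and 0.11 on the groups compared alone. In the direct comparison it was -0.184 to -0.056 without 1 library.

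Over all genes, GemC1 had 756 higher and 259 lower, with 443 to 877 and 32 to 267 without 1 library, 1154 and 663 with DESeq2 and 557 lower without a filter. Mcidas had 64 lower, with 29 to 99 without 1 library, 127 with DESeq2 and 123 without a filter. The direct comparison had 3 higher and 7 lower, with 3 to 5 and 1 to 8 without 1 library, 196 and 298 with DESeq2, 66 and 129 without a filter, 2 lower on the groups compared alone and 3 lower without mitochondrial, globin and introduced genes. The causes were not tested.

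The replicate numbers are not stated to pair libraries, and deviations of same-numbered libraries from their group means correlated at -0.07 to 0.05, against -0.08 to 0.12 for other pairs. With the number as a replicate block, 147 genes were lower in GemC1 and 3 in the direct comparison, and Ccng1 (adjusted p = 0.058) and Ddit4l (adjusted p = 0.051) lost their call in Mcidas. Counts were few for Fas and Tnfrsf10b, and too few for a test for Dram1 and Gdf15. Fas, uncalled in the reported fit, was called in Mcidas by DESeq2, without a low-count filter and without GemC1 replicate 1, and in GemC1 without the filter.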
